A study of Mus musculus with 50 samples.

Results

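The variants described here are those that the deposited annotation places in a gene of the olfactory receptor family (symbols starting Olfr) or of the vomeronasal receptor families (Vmn1r and Vmn2r). They were chosen by symbol alone, and they number 301 of the 25624 distinct variants listed, or 692 of 152086 calls. The study sequenced exomes of tumours in the mesenteric lymph nodes of IL6Myc mice, a transgenic myeloma model named for interleukin 6 and Myc, in which the labels call the cells malignant plasma cells. The labels give 45 tumours, each from its own mouse, and 5 kidneys of wild-type Balb/c mice; 44 tumours have a column in the table used here, and neither tumour 4 nor any kidney was used here. The sources used here give neither the promoters of the transgenes nor the age or sex of the mice, and DNA cannot show whether the tissue matches its label. Each value is the percent of reads at a site that carried the alternate base, termed the read share. Read depth is unknown, so a missing call can be a reference site or a site with too few reads, and inherited and acquired variants cannot be told apart.

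Olfr genes encode odorant receptors, G protein-coupled receptors of the sensory neurons of the nose, of which a mature neuron typically uses a single allele. Vmn1r and Vmn2r genes encode receptors of the vomeronasal organ, which detects pheromones and other social signals, and Vmn2r receptors carry a large extracellular domain that Olfr and Vmn1r receptors lack. All 3 groups lie in large tandem arrays of related copies with many pseudogenes, and lymphoid cells have little known use for them; expression was not measured in these samples.

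The reference sequences around upstream variants show how alike related copies can be. They hold no reads, so the origin of the reads behind a call was not tested. The stretches below are 29 bases each, from RefSeq on GRCm38.p6 (the assembly behind mm10), 5′ to 3′ on the gene's strand. Capitals mark the reference base at each variable position, or the aligned base in a related gene. Olfr1099 is shown for the most widely shared upstream variant, in 41 tumours, Olfr322 and Olfr1061 beside the related gene whose sequence holds the alternate base, and the last 3 for upstream variants at low read share in several tumours.
Olfr1099, c.-3G>T, chr2:86959445-86959473, minus strand: ttttagggtagtttGcaatgaataccttg
Olfr322, c.-121G>T and c.-113C>T, chr11:58665430-58665458, plus strand: tatacatgacGcagtttgCttatctgtca
Olfr317, related gene, chr11:58733266-58733294, minus strand: tatacatgacGcagtttgTttatctgtca
Olfr1061, c.-107T>G, chr2:86414143-86414171, minus strand: caaatattttataaTaaatatataattta
Olfr1066, related gene, chr2:86456362-86456390, minus strand: caaatattttataaGaaatatataattta
Olfr209, c.-51C>T, chr16:59362253-59362281, minus strand: ctgagtcttggttaCatttacaatgatct
Olfr1196, c.-39A>G, chr2:88701352-88701380, minus strand: ttaatttcagatgaActaagtttcagctg
Vmn1r223, c.-199G>A and c.-198T>G, chr13:23249029-23249057, plus strand: aaggatgagtGTatacgggatggcaaaag

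RefSeq start windows, 250 bases before to 50 after a gene's start, were found for 1267 family symbols, and 37 family variants fell inside one. The reference base matched at all 37. For 26 of these variants, all single nucleotide variants (SNVs), the 21 bases centred on the alternate base could be searched in the other windows, and they were found in another gene's window for 2, Olfr322 c.-113C>T and Olfr1061 c.-107T>G. The 29 bases of Olfr322 and Olfr317 differed at 1 position, as did those of Olfr1061 and Olfr1066, and at that position the related gene held the alternate base. Olfr317 held the reference base at the other Olfr322 position, c.-121G>T. The 2 Olfr322 changes were called in the same 10 tumours, at median read shares of 8.71% and 8.94%, while Olfr1061 c.-107T>G was private to 1 tumour. Over all family windows, 10.4% shared 50% or more of their 31-base words with one other family window. That figure was 2.54% for Olfr, 37.9% for Vmn1r and 25.6% for Vmn2r, and it was 10% for genes with a variant and 10.5% for genes without.

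Of the 301 variants, 186 lay in Olfr, 32 in Vmn1r and 83 in Vmn2r genes, and 247 were SNVs and 54 insertions or deletions. The annotation called 90 missense, 48 synonymous, 6 frameshift and 1 in-frame deletion, with 58 intronic, 49 upstream and 39 downstream. Intronic variants lay almost wholly in Vmn2r, with 56 there, 2 in Olfr and 0 in Vmn1r. Most variants were private, meaning called in 1 tumour: 233 of 301, or 77.4% (exact 95% interval 72.3 to 82.0%), against 49.3% (48.6 to 49.9%) of all other variants. A further 46 were in 2 to 5 tumours, 18 in 6 to 22 and 4 in over 22. The intervals here and below cover counting error only, and linked variants on a chromosome are not independent.

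**Figure D1:**
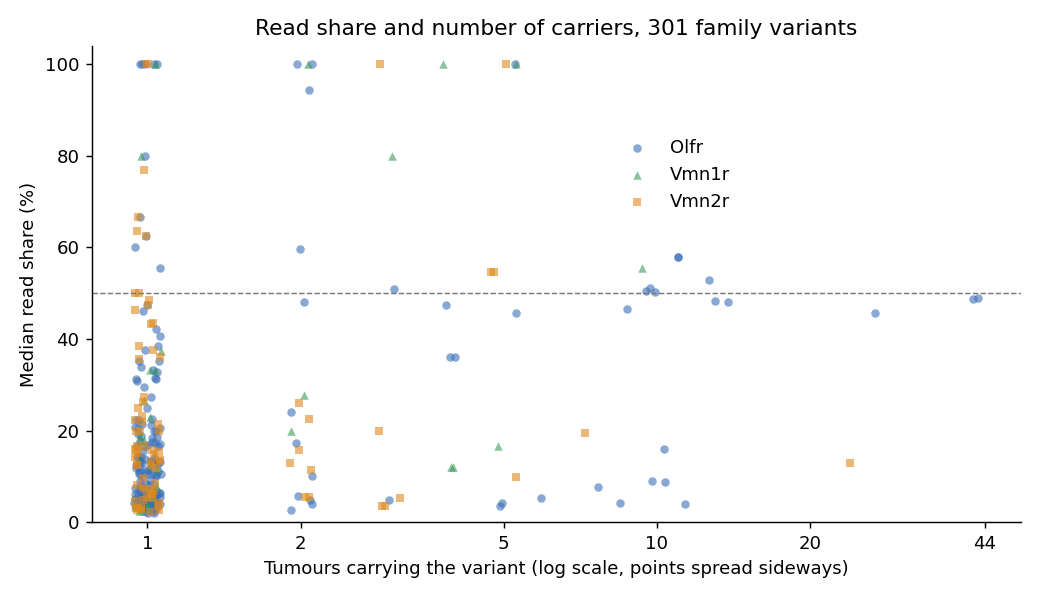
Median read share (percent, y axis) of each of the 301 family variants against the number of tumours that carried it (log scale, x axis), by subfamily, with points spread sideways and a dashed line at 50%. Most private variants lie below 20%, and shared variants fall into one set near 50%, another below 20% and a few near 100%.

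Read shares were low. The median of the private family variants was 12.5% (quartiles 5.56 and 22.2%), against 25% for other private variants, and 100 of 233 were under 10%, against 2252 of 12472. Private missense and synonymous variants of the family were lower still, with a median of 6.42% against 14.3% elsewhere, and 76 of 116 (65.5%, 56.1 to 74.1%) were under 10%, against 38.1% (35.9 to 40.4%). Shared family variants fell into bands, with 31 of 68 under 20% (45.6%, 33.5 to 58.1%), 22 between 35 and 65%, 10 above 65% and 5 between 20 and 35%. Of all other shared variants, 7.93% (7.47 to 8.41%) were under 20%. The family thus held more low-share variants than the rest of the table both among private and among shared variants.

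Within each tumour, family variants were compared with all other variants of the same tumour by paired sign-flip permutation tests (two-sided, 100000 resamples, Benjamini-Hochberg adjustment over 5 tests). The median read share was 27.7 ± 12.9% for the family and 47.7 ± 1.47% for the rest (mean ± SD, n = 44), lower in 41 of 44 tumours, a difference of -19.96 percentage points (adjusted permutation p = 1.25e-05). The share of private calls was 33.3 ± 15% against 8.25 ± 5.89%, higher in 43 of 44 tumours, and the difference was 25.1 points (adjusted permutation p = 1.25e-05). Missense made up 68.3 ± 26.1% of missense and synonymous calls in the family and 36.1 ± 2.06% elsewhere, higher in 37 of 43 tumours with such a call, by 32.2 points (adjusted permutation p = 1.25e-05). Transitions made up 58.0 ± 13.1% of family SNVs and 70.7 ± 0.954% of the others, lower in 37 of 44 tumours, by -12.7 points (adjusted permutation p = 1.25e-05). Each of these 4 had an unadjusted p of 1e-05, the smallest that the permutations can give. Against only those other variants within 5 Mb of a family gene, the differences kept their direction but were smaller. They were -14.8 points for read share, 19.2 for private calls, 21.7 for missense and -7.40 for transitions. The largest adjusted permutation p among them was 0.000662, for transitions. The tumours share variants, so they are not fully independent. Counting only calls of at least 20%, a cut on the compared value itself, left 0.885 ± 6.10 points in read share (SD of the difference, n = 44; adjusted permutation p = 0.349). It left the other 3 differences, with missense then measured in 25 tumours. Private variants alone gave -4.62 ± 14.4 points for read share (n = 43) and -9.86 ± 27.8 for transitions (n = 42), both short of the threshold (adjusted permutation p = 0.0594). That adjustment counted a test of private share, whose outcome is fixed among private variants. The unadjusted permutation p was 0.0356 for read share and 0.0281 for transitions, so both verdicts rest on the adjustment.

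**Figure D2:**
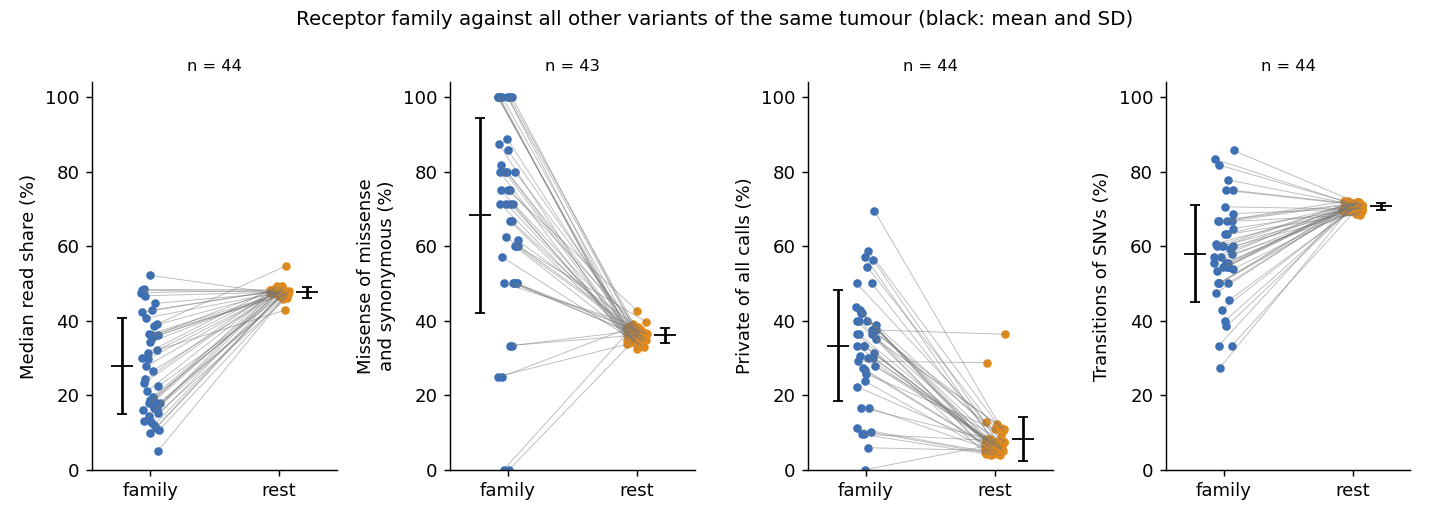
Family variants (blue) against all other variants (orange) of the same tumour, each a percent, with a line per tumour and black mean and SD: median read share, missense share, share of private calls, and transitions among SNVs. Family values spread widely, while the rest of the table stays within a narrow band except for private calls in 2 tumours.

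The missense share was alike in family and rest among private variants and differed among shared ones, which were not tested alone. Missense and synonymous calls of the family were also more often private, at 52.2 ± 31.8% per tumour against 6.21 ± 5.84% elsewhere (n = 43). How much of the paired missense difference came from that mix was not tested. Among private variants the family had 75 missense and 41 synonymous, a ratio of 1.83, and the rest 1169 and 708, a ratio of 1.65. Missense was thus 64.7% (55.2 to 73.3%) of private missense and synonymous variants in the family and 62.3% (60.0 to 64.5%) elsewhere. Restricting the paired comparison to private variants gave -1.94 ± 34.99 points (SD of the difference, n = 39; adjusted permutation p = 0.914). Among shared variants the family had 15 missense and 7 synonymous (ratio 2.14), and the rest 792 and 1468 (ratio 0.540). Only 7 of 48 synonymous family variants were shared (14.6%, 6.07 to 27.8%), against 67.5% (65.4 to 69.4%) elsewhere, and those 7 had a median read share of 4.04%, against 48.0%. Within the family, a difference between private and shared variants in missense to synonymous did not pass the test (Fisher's exact test over variants, odds ratio 0.854, interval 0.272 to 2.45, p = 0.812). The odds ratio moved to 0.193 with calls of at least 10% (Fisher's exact p = 0.145) and to 0.122 with calls of at least 20% (Fisher's exact p = 0.055). At these cuts private meant a single call left at or above the cut, so a variant could change group. No stop gained was called among 138 family coding SNVs, which allows a share of up to 2.17% by 3 counts of the total and 2.64% by the exact interval, and the rest had 46 of 4183 (1.10%), so a difference was not detectable at this number.

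Private SNVs were also compared by class. With each change written from its pyrimidine, T>G was 53 of 193 (27.5%) in the family and 14.9% elsewhere. T>C was 29.5% against 24.8%, C>T 17.6% against 29.8%, C>A 14% against 17.7%, T>A 9.84% against 6.37% and C>G 1.55% against 6.49%. Of the 53 T>G variants, 26 had a read share under 10%, and their median was 10.5%, against 16.7% for private T>G elsewhere. These shares are descriptions without a test. Of the 54 family insertions and deletions 40 were private (74.1%), against 52.3% of 5281 others. In the family 22 were of 1 base, 21 of them an A or a T, and this was not counted for the others.

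By subfamily, private variants were 78.5% in Olfr (71.9 to 84.2%), 68.8% in Vmn1r (50.0 to 83.9%) and 78.3% in Vmn2r (67.9 to 86.6%), and these intervals overlap. Missense to synonymous was 75 to 35 in Olfr, 7 to 3 in Vmn1r and 8 to 10 in Vmn2r. The median read share of vomeronasal calls in a tumour was 25 ± 20.8% and of olfactory calls 32.7 ± 14.6% (n = 43), lower in 29 tumours, by -7.61 points (adjusted permutation p = 0.0479). Among private variants alone this turned to 8.88 points higher in vomeronasal genes (n = 35, adjusted permutation p = 0.0253), so the order of the subfamilies depends on which variants are counted. Leaving out the variants in over 22 tumours also turned it, to 7.23 points (adjusted permutation p = 0.110), and without tumours 2 and 5 it was -7.48 (adjusted permutation p = 0.0635).

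Chromosome 7, with 575 of the 2073 family genes in RefSeq, held 97 variants, 78 of them private, and 162 calls. Chromosome 2 held 59 variants in 379 genes and 139 calls, chromosome 9 held 30 in 179 genes, and chromosome 17 held 23 in 142. These 4 held 16.9, 15.6, 16.8 and 16.2 variants per 100 family genes. Chromosome 6 stood low, with 5 variants in 132 genes (3.79 per 100), as did chromosomes 1 and 3. These held 1 variant in 36 genes (2.78 per 100) and 1 in 23 (4.35 per 100). Chromosome 4 stood high, with 16 in 43 genes (37.2 per 100), and just 37.5% of its variants were private. Chromosomes 8, 12, 18 and Y, with 9, 3, 3 and 20 family genes, had none.

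**Figure D3:**
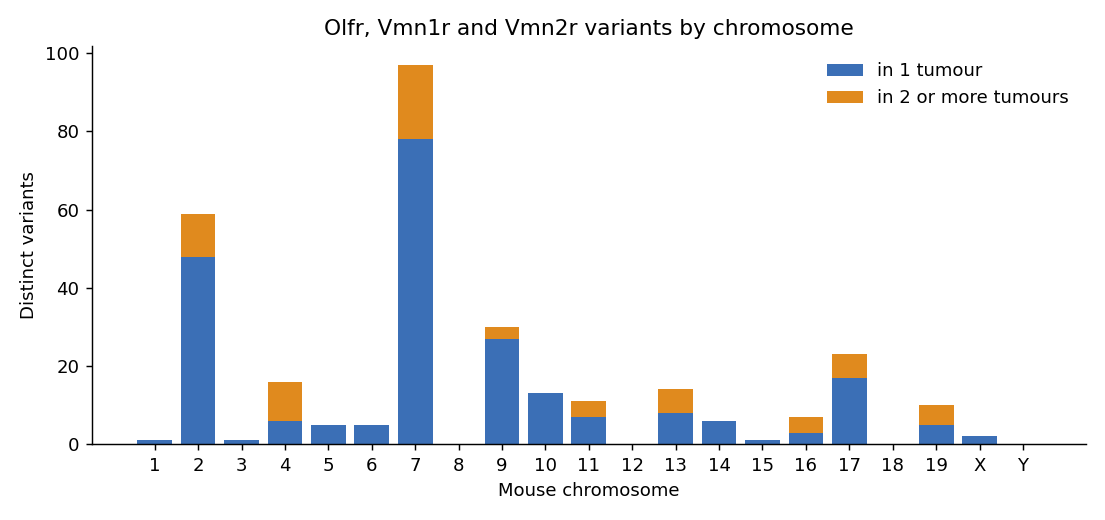
Number of distinct family variants (y axis) on each mouse chromosome (x axis), in 1 tumour (blue) or in 2 or more (orange). Chromosome 7 reaches 97 and chromosome 2 reaches 59, and on chromosome 4 the shared variants, 10 of 16, exceed the private ones.

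Joining family genes less than 1 Mb apart gave 111 clusters, of which 39 held a variant and 20 held at least 5, with 269 variants between them. The largest cluster of olfactory genes, 293 genes at chr2:85330967-90401674, held 49 variants, 42 of them private, with 26 missense, 7 synonymous and 1 truncating. The cluster with most vomeronasal variants, 123 genes at chr7:5146490-13244458, held 39, of which 26 lay in Vmn2r and 12 in Vmn1r genes, with 3 missense, 3 synonymous and 16 intronic. It was the less private of the pair, at 64.1% against 85.7%, and its private variants had a higher median read share, 20% against 11.04%. The Olfr clusters at chr9:37711348-40188094 (127 genes, 19 variants) and at chr7:102476773-105369317 (158 genes, 12 variants) were 84.2% and 83.3% private. In the Olfr clusters at chr7:106677534-108894405 (12 variants), chr9:18754692-20336094 (11 variants) and chr10:128989914-130497379 (12 variants, 2 of them in Vmn2r), all variants were private. The mixed cluster at chr7:84810427-87037968, with 14 variants in Vmn2r and 5 in Olfr, had 16 of 19 private, and the Vmn2r cluster at chr7:41399732-43048106 had 10 private variants, 9 of them intronic. The Vmn1r cluster at chr13:21072349-23269501 had 8 of 14 private.

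The private share beside these clusters varied. Within 1 Mb of the chromosome 2 cluster 24 of 29 other variants were private (82.8%), close to its own 85.7%, and within 1 Mb of the chr9:37711348-40188094 cluster 13 of 15 were (86.7%). In the Olfr cluster at chr4:43695000-43855463 the neighbours were shared like its members, with 23.1% of 169 other variants private against 27.3% of its own 11. The vomeronasal cluster at chr7:5146490-13244458 was more private than its neighbours, at 64.1% against 49.3% of 146, and the Vmn1r cluster on chromosome 13 less so, at 57.1% against 90.4% of 52. The chr4:43695000-43855463 cluster, of 8 genes, carried 68 calls in 24 tumours, more calls than all clusters but 3. Those 3 were the chromosome 2 cluster with 119 calls, the vomeronasal cluster on chromosome 7 with 94 and the Olfr cluster at chr19:11828077-13939288 with 75.

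Shared variants are described by read share. Among the 46 family variants in at least 3 tumours, 20 had a median read share of 35 to 65%, 19 were under 20%, 6 were above 65% and 1 lay between. Of the 20 near 50%, 12 had a variant outside the family, in at least 3 tumours, within 1 Mb, and 8 of those had such a neighbour whose tumours overlapped theirs by at least 0.8 (tumours in common over tumours in either). Of the 19 under 20%, 13 had such a neighbour and 1 overlapped that far. None of the 6 above 65% did, though all 6 had such a neighbour. Variants of the family itself were not counted as neighbours here. The 8 near 50% with such an overlap lay in Olfr186, Olfr1290, Olfr1299, Olfr159 and Olfr156. Several of them are linked, so they are not independent. Like counts were not made for variants outside the family, so these are no trait of the family.

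The most widely shared variant was an in-frame deletion, p.Asn173del, in Olfr1420 on chromosome 19, called in all 44 tumours at read shares of 39.1 to 59.3% with a median of 49.0%. The Olfr1099 upstream variant, in 41 tumours, ran from 29.7 to 64.9% with a median of 48.8%. It was missing from tumours 1, 2 and 3. A 3′ UTR variant of Olfr968 on chromosome 9 was in 26 tumours at a median of 45.7%, and an intronic variant of Vmn2r48 on chromosome 7 was in 25 at 13.04%, with 25% as its highest value.

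Some missense variants near 50% were carried by the same tumours. In the chr4:43695000-43855463 cluster, Olfr159 p.Asn196Ile and Olfr156 p.Gly152Ser were each called in the same 10 tumours, 2, 6, 7, 8, 9, 11, 13, 14, 18 and 20, at medians of 50.5% (45.8 to 57.0%) and 50.2% (46.4 to 54.9%). A 1-base deletion downstream of Olfr159 was in those 10 tumours too, and within 1 Mb 50 other variants had exactly these carriers. Olfr159 p.Ala107Thr was in 9 of the 10. On chromosome 16, Olfr19 p.Ala153Thr was in 13 tumours at 36.9 to 56.3%, and Olfr186 p.Gly269Val was in 13 at 41.2 to 53.6%. The 2 variants shared 12 tumours, which is 92.3% of each, and 13 variants near Olfr186 had exactly its carriers. On chromosome 2, Olfr1173 p.Ile312Met was in 14 tumours at 30.2 to 63.5%. Olfr1290 p.Val225Ile and Olfr1299 p.Arg226His were in the same 4 tumours, 2, 9, 16 and 18; Olfr1299 had read shares of 44.3, 50.0, 45.1 and 52.0% there, in that order. Olfr593 p.Ala132Thr on chromosome 7 was in tumours 3, 9, 11, 15 and 17 at 45.6, 54.0, 52.0, 45.6 and 45.5%, and Olfr1036 p.Thr5Ile on chromosome 2 was in tumours 1, 3 and 5 at 47.4, 50.9 and 54.4%.

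Carriers were unevenly spread over the sample titles. Of the 16 family variants in at least 5 tumours with a median of 35 to 65%, 8 (50.0%) were in none of the 22 tumours titled 1601 to 1628, against 43.8% of 6603 other variants chosen the same way. Tumours titled 1501 to 1592 carried 20.4 ± 6.74 family variants each (n = 18), those titled 1601 to 1628 carried 12.5 ± 3.69 (n = 22) and the 4 titled 1199 to 1293 carried 12.5 ± 7.72. The shared calls made most of that gap, at 14.1 ± 5.20 against 7.91 ± 2.24, with private calls at 6.33 ± 4.27 against 4.59 ± 2.63. All other variants showed a gap of like size, at 4365 ± 1197 calls against 2541 ± 571 and 293 ± 108 private calls against 167 ± 39.7, so the gap is not particular to the family. The labels do not say what the numbering stands for.

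**Figure D4:**
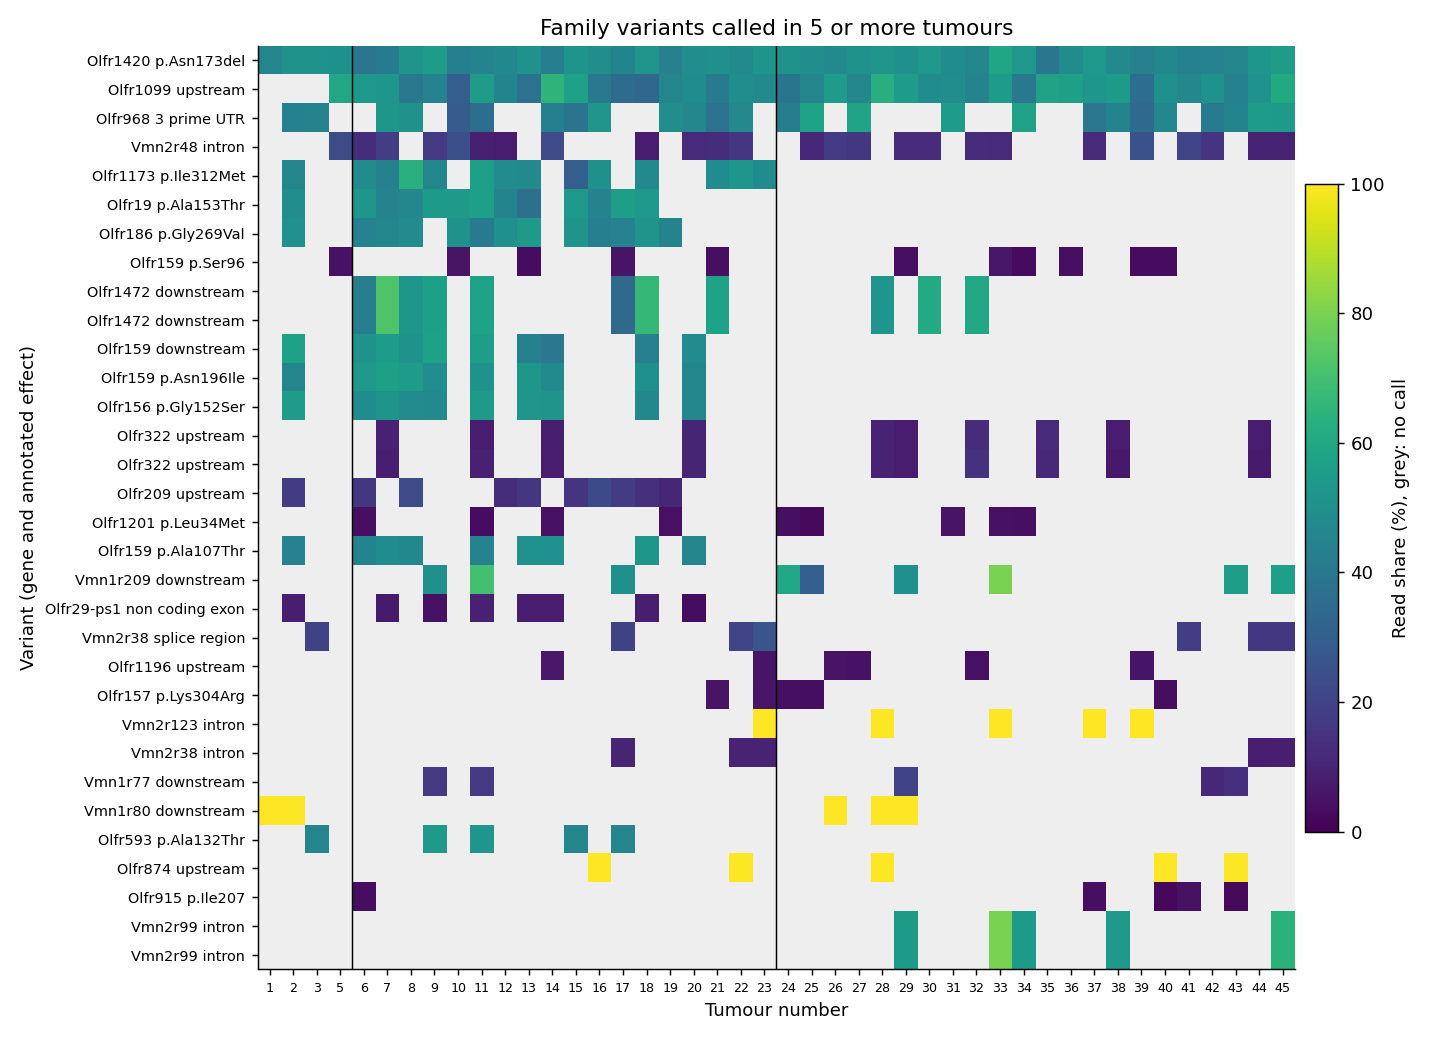
Read share (colour, percent) of the 32 family variants called in 5 or more tumours, by variant (rows) and tumour number (columns), with grey for no call and black lines between titles 1199 to 1293, 1501 to 1592 and 1601 to 1628. Of the 16 variants with a median of 35 to 65%, 8 have no call to the right of the second line, as have 2 of the 13 under 20%.

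A second kind of shared variant recurred at a low, narrow read share. Olfr159 p.Ser96, a synonymous change in the gene just described, was in 11 tumours at 3.05 to 6.49% with a median of 4.05%, and its best overlap with a neighbour outside the family was 0.0769. Olfr1201 p.Leu34Met was in 9 tumours at 2.72 to 5.13%. Olfr157 p.Lys304Arg was in 5 tumours at 3.70 to 5.92%, Olfr915 p.Ile207 in 5 at 2.26 to 4.44%, and the Olfr1196 upstream change in 6 at 4.62 to 6.90%. None of these reached 10% in any carrier, unlike the variants near 50%. The upstream change listed for Olfr207, Olfr208 and Olfr209 lay between these kinds, in 10 tumours at 10.6 to 22.9%, and all 10 also carried Olfr186 p.Gly269Val. The pseudogene Olfr29-ps1 held a change at 3.51 to 9.02% in 8 tumours, all of which also carried Olfr159 p.Asn196Ile.

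Variants were also split by how far the start window of their gene resembled another. Where 50% or more of the window's 31-base words recurred in one other family window, 59.4% of 32 variants were private and 9 of 13 shared ones were under 20% read share. Among genes with less alike windows 80.3% of 223 were private and 17 of 44 shared ones were under 20%, and among genes without a window 76.1% of 46 were private and 5 of 11 shared ones were under 20%. No test was made, and the likeness of the coding parts was not measured. Most variants of the first group lay in Vmn2r genes, so window likeness and subfamily cannot be told apart here. Shared variants had a median read share of 14.4% in Vmn2r and 45.7% in Olfr genes. All 31-base words of the windows of Vmn1r117, Vmn2r32, Vmn2r33 and Vmn2r49 were found in the window of 1 related gene each. The 4 variants of Vmn2r49, in 6 tumours, had read shares between 8.57 and 27.3%.

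Neighbouring bases and repeats gave multiple entries for what may be 1 change. In 6 pairs the SNVs lay on adjacent bases, and in all 6 both had the same tumours and shares to within 0.01 points, as in Olfr1472 (11 tumours, 57.9%), Vmn2r99 (5 tumours, 54.5%) and Vmn1r223 (4 tumours, 12.1%). In Olfr1290 and Vmn2r79 one base of the pair was annotated as missense and the other as synonymous, which adds to both counts. Vmn1r80, the gene with most variants, had 6, all insertions of 3 to 9 T at one downstream position. They were in 16 tumours, with 1 length in each, at 80 to 100% of reads. Vmn2r30 and Vmn2r79 had 5 variants each, and Olfr843 had 4, of which 3 were repeat-length changes of a 4-base unit, in 3 tumours.

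Protein-altering variants (missense, truncating or in-frame) touched 93 family symbols, of which 91 were among the 1465 protein-coding family genes in RefSeq, or 6.21% (5.03 to 7.57%), against 7.32% of all 21900 protein-coding genes. With at least 3 tumours altered the family had 13 genes (0.887%) against a background of 2.23%, and with a private alteration 78 (5.32%) against 5.14%. Requiring a private alteration at a read share of at least 20% left 15 genes (1.02%) against 1.58%. Of 1110 Olfr genes 76 were altered (6.85%), of 231 Vmn1r genes 7 (3.03%) and of 124 Vmn2r genes 8 (6.45%). The interval for alteration in at least 3 tumours (0.473 to 1.51%) lay below the background, and that for private alteration (4.23 to 6.60%) held it. These gene counts take no account of coding length, which is short in Olfr and Vmn1r genes.

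The genes altered in most tumours were those of the shared variants above, Olfr1420 (44 tumours), Olfr1173 (14), Olfr186 and Olfr19 (13 each), Olfr156 and Olfr159 (10 each), Olfr1201 (9), Olfr157 and Olfr593 (5 each) and Vmn2r79 (4). Of the 93 altered symbols, 76 were altered in 1 tumour. The private missense variants with the highest read shares were spread over receptors and tumours. Olfr725 p.Thr91Pro had 40.7% of reads in tumour 19, Olfr809 p.Phe126Ser 37.5% in tumour 2, Vmn1r196 p.Leu60Phe 37.3% in tumour 2, and Olfr1209 p.Leu42Arg 33.9% in tumour 43. The next 6, in Olfr198, Vmn2r38, Olfr710, Olfr1500, Olfr684 and Olfr1233, lay between 21.3 and 27.3%. Of the 75 private missense variants of the family 11 reached 20%, against 393 of 1169 elsewhere.

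Truncating changes were 6 frameshifts, all private, and each gained or lost a single A or T. They gave 6 truncated genes of 1465 (0.41%, 0.150 to 0.889%), against 0.712% of all protein-coding genes. Tumour 23 held 3 of them, Olfr808 p.Leu80Ter at 35.1%, Vmn2r67 p.Tyr108Ilefs*2 at 37.6% and Vmn1r129 p.Asn256Ilefs*6 at 3.92%. The others were Olfr556 p.Ser219Glnfs*6 at 46.0% in tumour 30, Vmn2r98 p.Phe47Serfs*9 at 21.8% in tumour 18 and Olfr1217 p.Phe250Leufs*6 at 16.7% in tumour 34. The other 40 tumours had no truncating family call.

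Other receptors of the chemical senses were altered in a share near the background. The list held 65 genes for taste, trace amine-associated and related receptors, with Fpr and Ms4a4 symbols among the related ones. Of these genes, 5 were altered (7.69%, against the background of 7.32%), each by a private missense variant. They were Tas2r104 (4.17%), Tas2r124 (3.60%) and Tas2r125 (16.4%), all bitter taste receptors, and the trace amine-associated receptors Taar7d (4.31%) and Taar8a (16.96%). Of 28 genes for olfactory signal transduction and receptor choice, which act downstream of the receptors or in choosing one, 1 was altered (3.57%). It was the cell adhesion gene Ncam1, by p.Gln972Argfs*22 at 15.4%. The list of 28 genes held 15 variants with no missense and no synonymous one among them.

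Every tumour carried family variants, 15.7 ± 6.65 each (SD, n = 44), from 6 in tumour 36 to 38 in tumour 18. Private ones numbered 5.30 ± 3.41, from 0 in tumour 39 to 16 in tumours 18 and 19. In tumour 18 the 16 lay in 15 genes on 7 chromosomes at 3.74 to 60.0% of reads, and in tumour 19 in 16 genes on 7 chromosomes at 2.78 to 47.4%, so neither set came from one cluster. Missense family calls averaged 4.11 ± 3.56, and 3 tumours had none.

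**Figure D5:**
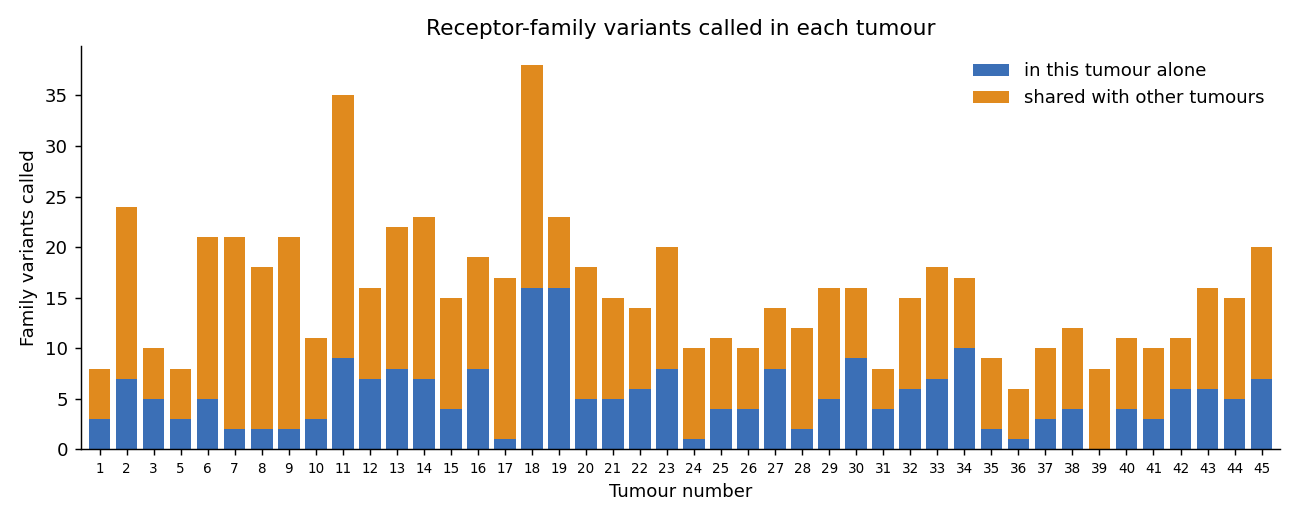
Number of family variants called (y axis) in each tumour by its number (x axis), split into variants called in that tumour alone (blue) and those shared with other tumours (orange). Tumour 18 is highest with 38 and tumour 36 lowest with 6, and tumour 39 has no private one.

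The number of private family variants was set against that of other private variants in the same tumour, with r and rho over 4 sets of tumours. Over all 44 tumours Pearson's r was 0.171 (permutation p = 0.226) and Spearman's rho 0.358 (permutation p = 0.0181). Tumours 2 and 5 lay farthest out, with 1696 and 909 other private variants and 7 and 3 in the family, and without them r was 0.366 (permutation p = 0.0173) and rho 0.392 (permutation p = 0.0107). Within titles 1601 to 1628 r was 0.624 (rho 0.613; permutation p = 0.0021 and 0.00304, n = 22), and within titles 1501 to 1592 it was 0.349 (rho 0.376; permutation p = 0.153 and 0.123, n = 18). After Benjamini-Hochberg adjustment over these 8 values, the permutation p was 0.226 for r and 0.0289 for rho over all tumours, 0.0289 and 0.0285 without the 2, 0.0122 for both in titles 1601 to 1628, and 0.175 and 0.165 in titles 1501 to 1592. The 4 tumours titled 1199 to 1293 are too few for a value.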

How the data were processed

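DNA came from a Qiagen DNeasy extraction and exons were enriched with Agilent SureSelect probes (mouse, 50 Mb), per the labels' protocols, and variants were called with GATK on mm10, per the submitters' processing notes; the aligner, its settings, filters and the annotation software are, in the sources used here, not given. The deposited cells hold percents of alternate reads, read as such from the values, and a deposited count column gives the number of tumours with a value, which matched in every row. Of 25823 rows, 199 with several alternate alleles were left out. Depth is unknown, so no interval was set on a single percent. Clusters joined RefSeq family genes under 1 Mb apart. Paired tests used 100000 sign flips over tumours (exact below 10), and Fisher's exact test was applied to variants (scipy 1.17.1, pandas 2.3.3). The test was tested on simulated data. Tumours are separate mice, per the series design. Alternatives covered read share, variant type, carriers, chromosome, nearby variants, titles, tumours left out and cluster gap. Named genes are the 10 altered in most tumours, all with a truncating change, the 10 private missense variants of highest share and the 10 genes with most variants. Members, lists and rules were chosen with earlier results of these data known.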

Additional observations from a re-analysis of the deposited data

How the results depend on the processing

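Of 84 recomputed values, 65 kept their direction and their side of the threshold (counts within 1.5 times), 11 kept their direction but missed the threshold, 6 reversed and 2 counts moved. Some of the 65 could not change. Every family row names only family genes, so that restriction repeated the main values. Missense and synonymous variants are all exonic SNVs, so restricting to either repeated the missense values. With a minimum read share of 20%, family minus rest read share turned to 0.885 points and vomeronasal minus olfactory to 6.84, and 115 variants and 25 altered symbols were left. With private variants alone, the missense difference turned to -1.94 and the subfamily difference to 8.88, while read share (-4.62) and transitions (-9.86) missed the threshold, both at adjusted permutation p = 0.0594. That adjustment counted the private share, which is fixed among private variants. The unadjusted permutation p was 0.0356 for read share and 0.0281 for transitions. The subfamily difference also reversed without variants in over 22 tumours (7.23) and within titles 1601 to 1628 (3.38). It missed the threshold with SNVs alone (-6.02), without chromosome 7 (-1.13), without tumours 2 and 5 (-7.48) and with means in place of medians (-1.70). Within the 4 tumours titled 1199 to 1293, where an exact test cannot go below 0.125, the differences were -4.48 for read share, 24.2 for missense, 16.8 for private calls, -1.97 for transitions and -3.17 for the subfamilies. The causes were not tested. Clusters of at least 5 variants numbered 23 with a 0.5 Mb gap and 18 with 2 Mb. Comparing missense and synonymous variants alone was chosen after seeing the data. Unknown depth limits every low read share.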
